A study of Homo sapiens with 16 samples.

Results

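The genes described here are the transporters of glucose, lactate, amino acids and related solutes that are listed in RNA-seq counts of H1299 cells after YEATS2 knockdown (KD). They were chosen by symbol. Every listed gene of the solute carrier (SLC) families 1, 2, 3, 5, 6, 7, 16, 38 and 43 was taken, except 1 gene that is not reported here. This gave 45 of 12676 listed genes. Of the 45, 41 encode transporters or their heavy chain, and the other 4 carry a transporter's name without being a functional transporter gene. SLC16A1-AS1 is an antisense RNA, SLC7A6OS is a gene on the opposite strand of SLC7A6, SLC2A4RG is a regulator of SLC2A4, and SLC6A10P is a pseudogene. Of 94 known transporter genes of these families, the other 53 were not listed.

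H1299 is a line from a human non-small cell lung carcinoma. Both groups were infected with a lentivirus carrying an shRNA, in polybrene at 8 µg per ml, and puromycin at 2 µg per ml was added after 48 h and kept for 4 to 7 days per the labels. The control group carried a non-targeting shRNA (shNT, 2 libraries) and the YEATS2 KD group an shRNA against YEATS2 (shYEATS2, 2 libraries), so both groups went through infection and drug selection. The labels do not name the YEATS2 shRNA. The study's text gives shY2-1 for its duplicate RNA-seq. It also reports RNA-seq with another shRNA, shY2-2, that depleted YEATS2 only in part, and an overlap of the genes lowered by both. All 4 libraries come from 1 cell line. YEATS2 is a subunit of the ATAC histone acetyltransferase complex that reads acetylated histones. The comparison asked which transporter genes changed in level when YEATS2 was depleted.

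Sugars and amino acids cross membranes only through carriers. The SLC2 (GLUT) family carries hexoses down their gradient, with GLUT1 and GLUT3 as the main glucose carriers of many tumour cells, and the SLC16 (MCT) family exports lactate with a proton. Amino acids enter by sodium-coupled carriers (SLC1, SLC6, SLC38) or by exchangers of the SLC7 family, several of which work only when joined to the heavy chain SLC3A2. Leucine, glutamine and arginine that enter this way are sensed at the lysosome, where they switch on the growth kinase complex mTORC1. Many amino acid carriers are also known targets of the transcription factor ATF4, which is made when amino acids run short, and GLUT1 and MCT4 are known targets of the hypoxia factor HIF.

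The listed genes received 34718921 to 39417787 reads per library. All counts below were scaled for library size with the trimmed mean of M values (TMM) and are given as scaled reads. Error is the standard error (SE) of the log2 fold change, shYEATS2 minus shNT. A gene was called at a false discovery rate (FDR) under 0.01 from the quasi-likelihood test of edgeR, with Benjamini-Hochberg adjustment over all 12676 genes. YEATS2 itself (ENSG00000163872, chr3:183415585-183530412 (+), GRCh37, the build of all gene positions below) had 4482 and 4104 scaled reads in shNT against 665 and 673 in shYEATS2, a log2 fold change of -2.68 ± 0.10 (FDR 0.000583). The mesenchymal genes VIM and CDH2 and the keratins KRT8 and KRT18 were listed, and the epithelial markers EPCAM and CDH1, the lung markers NKX2-1, SFTPB, SFTPC, NAPSA and SCGB1A1, the leukocyte marker PTPRC and the endothelial marker PECAM1 were not. None of the 4 listed genes was called, with log2 fold changes from -0.81 (KRT18, FDR 0.0283) to 0.36 (CDH2). In bulk RNA, a change in every cell cannot be told apart from a larger change in some of the cells. The study's text calls the duplicates independent biological replicates, and no label ties a replicate number to a shared batch.

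Of the 45 genes, 10 rose and 4 fell in YEATS2 KD cells, which is 22.2% and 8.89% of them. Over all genes tested, 12.9% rose and 12.5% fell. The other 31 were not called. The table lists only genes with more than 100 reads in some library (the lowest maximum is 101), so a gene under that limit in every library of one group is in it only through the other group, where it is high. This holds for 6 of the 45 genes. SLC6A14, SLC16A6, SLC2A14 and SLC6A16 were listed only through shYEATS2, and SLC16A10 and SLC6A10P only through shNT. Among the other 39, 8 rose (20.5%) and 2 fell (5.1%), beside 11.9% and 12.9% of the 11814 such genes in the table. The median log2 fold change of the 45 was 0.24, beside -0.0019 over all genes, and 33 of the 45 lay above 0. In 33 of the 45 (73.3%) the 2 groups did not overlap, against 79.6% of all genes, so separation of the groups by itself was no more common among transporters than elsewhere. With total counts in place of TMM, 13 rose and 2 fell, which moved the share of rises among the calls from 71.4% to 86.7%. Over all genes, that share moved from 50.8% to 67%, and the median moved by 0.12 on the log2 scale. Fewer of the genes rose, and fewer fell, without shNT replicate 1, without shNT replicate 2 or without shYEATS2 replicate 2. The calls over all genes dropped in these fits too.

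**Figure D1:**
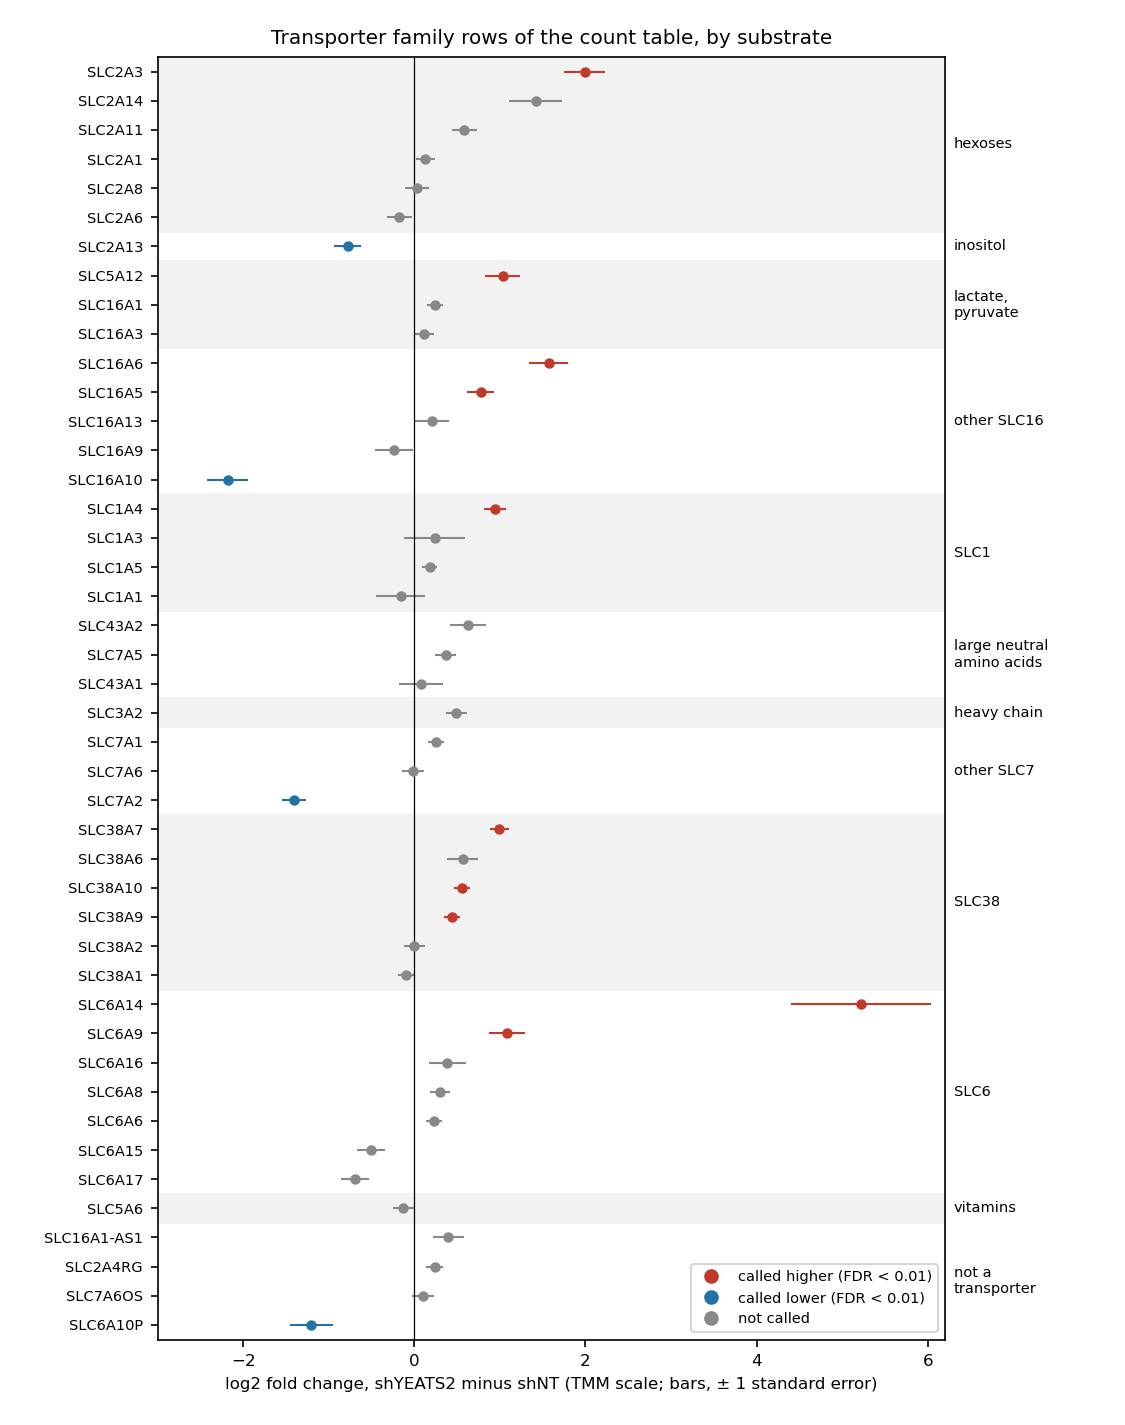
Log2 fold change (shYEATS2 minus shNT, x axis) of 44 of the 45 genes, grouped by substrate, with bars of 1 SE from the fit over 2 libraries a group. Red points are the 10 called higher, blue points the 4 called lower and grey points 30 of the 31 not called. SLC6A14 and SLC2A3 lie farthest to the right, and SLC16A10 and SLC7A2 farthest to the left.

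Of the 14 calls, 7 held in every alternative fit in which the gene was tested and with each of the 4 libraries left out. These were the rises of SLC6A14, SLC2A3, SLC16A6, SLC38A7 and SLC1A4 and the falls of SLC16A10 and SLC7A2. Of these 7, SLC6A14, SLC16A6 and SLC16A10 were listed through 1 group only, the one where they are high, and the other 4 through both. The share of all called genes that held in this way was not counted. Exons of 11 of the 45 genes overlap those of another listed gene, SLC16A3 and CSNK1D by 482 bases for example, and the library kit does not mark the strand, so reads there cannot be told apart. The replicates of most genes lay close together. The median absolute difference between replicates was 0.166 on the log2 scale in shNT and 0.184 in shYEATS2. Replicates differed by over 1.5-fold for 2 genes in shNT (SLC1A3 and SLC6A14) and for 5 in shYEATS2 (SLC1A1, SLC2A3, SLC43A2, SLC16A10 and SLC6A14).

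**Figure D2:**
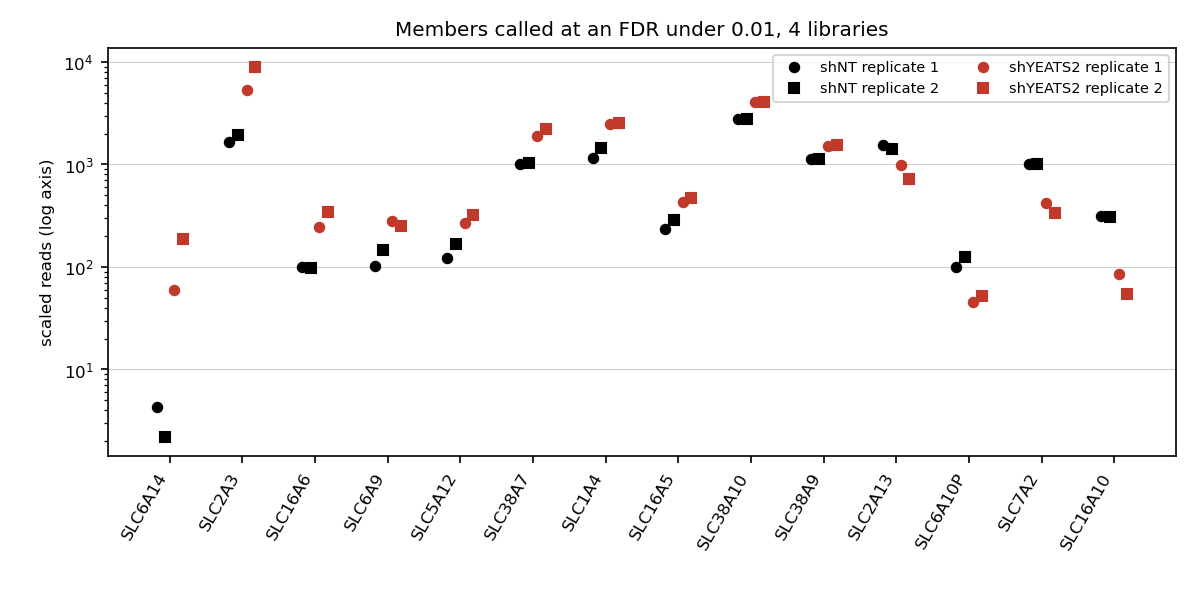
Scaled reads (log axis) of the 14 called genes in the 4 libraries, with black for shNT, red for shYEATS2, circles for replicate 1 and squares for replicate 2. For each gene the 2 groups do not overlap, and the 2 shYEATS2 points lie farthest apart for SLC6A14 (59.9 and 189).

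Among the hexose carriers, GLUT3 rose and GLUT1 was not called. SLC2A3 (GLUT3, chr12:8071826-8171603 (-)), a glucose carrier of high affinity, had 1669 and 1943 scaled reads in shNT against 5337 and 9029 in shYEATS2. Both KD libraries lay above both controls, and KD replicate 2 was the highest of the 4. The mean was 1806 ± 194 in shNT and 7183 ± 2610 in shYEATS2 (SD, n = 2), and the log2 fold change was 1.99 ± 0.24 (FDR 0.00167), with 1.56 when shYEATS2 replicate 2 was left out. SLC2A1 (GLUT1, chr1:43391024-43424564 (-)), the carrier that most cells use for basal glucose uptake, had 3849 and 3543 scaled reads in shNT against 4334 and 3751 in shYEATS2. Its groups overlapped, and its log2 fold change was 0.13 ± 0.11 (FDR 0.357).

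SLC2A14 (GLUT14), a close copy of SLC2A3 near it on chromosome 12, had 30.1 and 33.6 scaled reads in shNT against 68.8 and 102 in shYEATS2. Its log2 fold change of 1.42 ± 0.31 (FDR 0.0107) lay just outside the threshold, with the gene listed only through shYEATS2, and 5 of 9 alternative fits called it. Of the 50-base words in the SLC2A14 transcripts, 16.4% were also found in SLC2A3 transcripts, so some reads of the pair cannot be placed. SLC2A11 (GLUT11) was not called either (log2 fold change 0.58 ± 0.15, FDR 0.0169), with 249.6 and 281 scaled reads in shNT against 377 and 418 in shYEATS2. The intracellular carriers SLC2A8 (GLUT8) and SLC2A6 (GLUT6) had log2 fold changes of 0.03 and -0.18 with overlapping groups. The class holds 18 genes, and the other 12, the sodium-coupled glucose carriers SLC5A1 and SLC5A2 among them, were not in the table.

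SLC2A13 (HMIT, chr12:40148827-40499891 (-)), which carries myo-inositol with a proton, fell. It had 1549 and 1411 scaled reads in shNT against 999 and 726 in shYEATS2, a log2 fold change of -0.78 ± 0.16 (FDR 0.00888). The 2 KD libraries lay below both controls, and the call was lost with total counts and without shNT replicate 1, shNT replicate 2 or shYEATS2 replicate 2.

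The main lactate carriers were not called. SLC16A1 (MCT1, chr1:113454469-113500215 (-)), which carries lactate in both directions, had 4676 and 4258 scaled reads in shNT against 5208 and 5379.9 in shYEATS2, a log2 fold change of 0.24 ± 0.096 (FDR 0.0726). SLC16A3 (MCT4, chr17:80175810-80219005 (+)), the lactate exporter of glycolytic cells, had 4559 and 5154 scaled reads in shNT against 4954 and 5565 in shYEATS2, and its groups overlapped (log2 fold change 0.12 ± 0.11, FDR 0.411). The third listed gene of this class rose. SLC5A12 (SMCT2, chr11:26688567-26744974 (-)), which takes up lactate with sodium and is known from the kidney, had 123 and 166 scaled reads in shNT against 271 and 320.1 in shYEATS2 (log2 fold change 1.03 ± 0.21, FDR 0.00749). That call was lost without shNT replicate 1 or shYEATS2 replicate 2. SLC16A7 (MCT2) was not listed.

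The SLC16 genes with other substrates moved in both directions. SLC16A10 (TAT1, chr6:111408706-111552397 (+)), which lets the aromatic amino acids tryptophan, tyrosine and phenylalanine leave the cell, fell the most of all 45 genes. It had 316 and 308 scaled reads in shNT against 84.5 and 53.9 in shYEATS2, so both controls lay far above the KD libraries, and the gene was listed only through shNT. The mean was 4.53-fold lower in YEATS2 KD cells (log2 fold change -2.18 ± 0.24, FDR 0.00135). SLC16A6 (MCT7), a carrier of ketone bodies, had 100.1 and 98.7 scaled reads in shNT against 244 and 346 in shYEATS2. Its raw reads were 93 and 91 in shNT, under the limit of the table, so it was listed only through its KD libraries, and its log2 fold change was 1.57 ± 0.22 (FDR 0.00258). SLC16A5 (MCT6) had 236 and 289 scaled reads in shNT against 426 and 469 in shYEATS2 (log2 fold change 0.77 ± 0.16, FDR 0.00793), a call lost without shNT replicate 1, shNT replicate 2 or shYEATS2 replicate 2. SLC16A13 and SLC16A9 had log2 fold changes of 0.21 and -0.24 with overlapping groups. Exons of SLC16A6 overlap those of ARSG by 144 bases.

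In the SLC1 family, ASCT1 rose and ASCT2 was not called. SLC1A4 (ASCT1, chr2:65215611-65250999 (+)) exchanges alanine, serine, cysteine and threonine and had 1148 and 1465 scaled reads in shNT against 2501 and 2530.3 in shYEATS2. The KD libraries were nearly equal and both lay above the controls, with a log2 fold change of 0.95 ± 0.13 (FDR 0.0024). SLC1A5 (ASCT2, chr19:47278140-47291851 (-)), the glutamine exchanger of many cancer cells, had 6557 and 6338 scaled reads in shNT against 7347 and 7241 in shYEATS2. Its groups did not overlap, but the log2 fold change was only 0.18 ± 0.089 (FDR 0.138). The glutamate carriers SLC1A3 (EAAT1) and SLC1A1 (EAAT3) were low. SLC1A3 had 103 and 48 reads in shNT and 91 and 116 in shYEATS2, and SLC1A1 had 80 and 106 against 73 and 122. Their log2 fold changes were 0.24 ± 0.36 (FDR 0.606) and -0.16 ± 0.29 (FDR 0.668), and the direction of each turned when 1 library was left out.

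The leucine carrier LAT1 and its heavy chain were among the transporters with the most reads and neither was called. SLC7A5 (LAT1, chr16:87863629-87903113 (-)), which exchanges glutamine for leucine and other large neutral amino acids, had 21792 and 27297 scaled reads in shNT against 31199.9 and 32039 in shYEATS2. Both KD libraries lay above both controls, and the 2 controls differed from each other more than the KD libraries did (log2 fold change 0.37 ± 0.13, FDR 0.0486). SLC3A2 (the CD98 heavy chain, chr11:62623476-62656352 (+)), which brings LAT1 to the plasma membrane, had 7809 and 9323 scaled reads in shNT against 11337 and 12715 in shYEATS2. Its log2 fold change of 0.49 ± 0.12 (FDR 0.0163) missed the threshold, and 4 of 10 alternative fits called it. The facilitative carriers of the SLC43 family were not called either. SLC43A2 (LAT4) had 716 and 788 scaled reads in shNT against 896 and 1427 in shYEATS2, of which the highest value was in shYEATS2 replicate 2 (log2 fold change 0.63 ± 0.21, FDR 0.0469, and 0.254 without that library). SLC43A1 (LAT3) had 89.3 and 126 scaled reads in shNT against 101 and 126 in shYEATS2, with overlapping groups and a log2 fold change of 0.08 ± 0.25 (FDR 0.815).

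Of the cationic amino acid carriers, CAT2 fell and CAT1 was not called. SLC7A2 (CAT2, on chromosome 8) carries arginine, lysine and ornithine and had 1012 and 1001 scaled reads in shNT against 421 and 339 in shYEATS2. Both KD libraries held far fewer reads than either control, and the log2 fold change was -1.41 ± 0.14 (FDR 0.00114). SLC7A1 (CAT1), the arginine carrier of most growing cells, had 5609 and 6002 scaled reads in shNT against 7067 and 6803 in shYEATS2. Its KD libraries lay above the controls, opposite in direction to SLC7A2, and its log2 fold change was 0.26 ± 0.093 (FDR 0.0577). SLC7A6 (y+LAT2), which exchanges arginine for glutamine, had 2502 and 2026 scaled reads in shNT against 2384 and 2098 in shYEATS2 and a log2 fold change of -0.02 that turned positive with total counts. Its exons share 3372 bases with SLC7A6OS on the opposite strand, so reads in those bases cannot be told apart.

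In the SLC38 family, 3 of the 6 genes listed rose (50%), beside 12.9% of all genes, and fewer rose with any 1 library left out. SLC38A7 (SNAT7, chr16:58699013-58718674 (-)), which lets glutamine and asparagine out of the lysosome, had 1020.0 and 1034 scaled reads in shNT against 1876 and 2216 in shYEATS2, a log2 fold change of 0.99 ± 0.11 (FDR 0.00146). SLC38A9 (chr5:54921673-55069022 (-)), the lysosomal arginine sensor of mTORC1, had 1123 and 1137 scaled reads in shNT against 1526 and 1544 in shYEATS2. Its replicates were close in both groups, and the log2 fold change was 0.44 ± 0.095 (FDR 0.0099). SLC38A10 (chr17:79218611-79269347 (-)), a less studied neutral amino acid carrier, had 2780.3 and 2758 scaled reads in shNT against 4065 and 4082 in shYEATS2 (log2 fold change 0.56 ± 0.090, FDR 0.00382). The SLC38A10 call was lost without shNT replicate 1 or shNT replicate 2. The SLC38A9 call, which lay just inside the threshold, was lost in both limma-trend fits and with any 1 library left out, where the log2 fold change stayed between 0.428 and 0.452.

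The 2 SLC38 genes with the most reads were not called. SLC38A2 (SNAT2), the glutamine carrier known to be induced when amino acids are scarce, had 21083 and 25754 scaled reads in shNT against 23580.0 and 23308 in shYEATS2. The KD libraries lay between the controls, with a log2 fold change of 0.0016 ± 0.12 (FDR 0.992). SLC38A1 (SNAT1), a glutamine carrier of the plasma membrane, had 18239.9 and 19532 scaled reads in shNT against 17268 and 17969.7 in shYEATS2. It had a log2 fold change of -0.10 ± 0.094 (FDR 0.402), which turned to 0.019 with total counts. SLC38A6 had 351 and 279.9 scaled reads in shNT against 407 and 525 in shYEATS2 and was not called (log2 fold change 0.56 ± 0.18, FDR 0.0408).

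In the SLC6 family, the broad amino acid carrier ATB0,+ rose from a few reads in the controls. SLC6A14, which takes up all neutral and cationic amino acids with sodium and chloride and is known to be raised in several epithelial cancers, had 4 and 2 reads in shNT against 61 and 214 in shYEATS2. The ratio of summed and scaled reads was 39.5, with a 95% exact interval of 17.9 to 109 that covers counting error only. The log2 fold change was 5.22 ± 0.82 (FDR 0.00354), and 4.16 without shYEATS2 replicate 2, which held most of the reads. The gene is in the table, and passed the filter of 10 reads in 2 libraries, only through its KD libraries. SLC6A9 (GlyT1), a glycine carrier, had 103 and 146 scaled reads in shNT against 279 and 250.2 in shYEATS2 (log2 fold change 1.08 ± 0.21, FDR 0.00751). Leaving out shNT replicate 1 or either shYEATS2 replicate ended that call, and exons of SLC6A9 overlap those of CCDC24 by 413 bases.

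The other SLC6 genes were not called. SLC6A6 (TauT), the taurine carrier, had 2317 and 2149 scaled reads in shNT against 2584 and 2646 in shYEATS2 (log2 fold change 0.23 ± 0.094, FDR 0.0849). SLC6A8, the creatine carrier, had 477 and 468 scaled reads in shNT against 571 and 594 in shYEATS2 (log2 fold change 0.30 ± 0.12, FDR 0.0682). Both had higher values in each KD library than in each control. The neutral amino acid carriers of neurons SLC6A17 (NTT4) and SLC6A15 (B0AT2) lay the other way. SLC6A17 had 246 and 261 scaled reads in shNT against 153 and 160.0 in shYEATS2 (log2 fold change -0.70 ± 0.16, FDR 0.0134), and SLC6A15 had 915 and 874 scaled reads in shNT against 729 and 529.6 in shYEATS2 (log2 fold change -0.51 ± 0.16, FDR 0.0399). SLC6A16, an orphan carrier listed only through shYEATS2, had a log2 fold change of 0.39 ± 0.22 (FDR 0.176).

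SLC5A6 (SMVT), the sodium-coupled carrier of biotin and pantothenate, had 5135 and 4477 scaled reads in shNT against 4751 and 4055 in shYEATS2, with overlapping groups (log2 fold change -0.13 ± 0.12, FDR 0.409). The inositol carrier SLC5A3 was not listed. Of the 4 genes that only share a transporter's name, the pseudogene SLC6A10P, listed only through shNT, fell. It had 100.1 and 125 scaled reads in shNT against 45.2 and 52.2 in shYEATS2 (log2 fold change -1.20 ± 0.25, FDR 0.00897), while SLC6A8, with which it shares 7.83% of its 50-base words, lay slightly higher in the KD libraries. Its call was lost in both limma-trend fits, with total counts and with any 1 library left out. SLC16A1-AS1 had a log2 fold change of 0.40 ± 0.18 (FDR 0.109), SLC2A4RG of 0.24 ± 0.10 (FDR 0.0894) and SLC7A6OS of 0.10 ± 0.12 (FDR 0.521).

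Levels of different genes were compared per kilobase (kb) of transcript, for the 44 genes with an annotated length. The highest level in shNT cells was that of SLC7A5, with 5387 scaled reads per kb, followed by SLC38A2 with 4884 and SLC3A2 with 4544. The levels of SLC38A1 (2332 scaled reads per kb), SLC1A5 (2237) and SLC16A3 (1869) came next. The first 6 places held the same 6 genes in YEATS2 KD cells, where SLC7A5 had 6940 scaled reads per kb and SLC3A2, with 6380, passed SLC38A2, with 4889. The 5 genes with the highest level were thus all carriers of glutamine, leucine or their heavy chain, and none of them was called. SLC2A3 moved from rank 13, with a level of 472 scaled reads per kb, to rank 7, with 1877, and passed SLC2A1, whose level was 1092 in shNT and 1195 in shYEATS2. The levels behind the larger fold changes were lower. SLC16A10 went from 29 to 6.44 scaled reads per kb and SLC16A6 from 26.9 to 79.8. The reads of all 45 genes together made up 0.327% and 0.365% of the listed reads in shNT and 0.431% and 0.451% in shYEATS2.

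**Figure D3:**
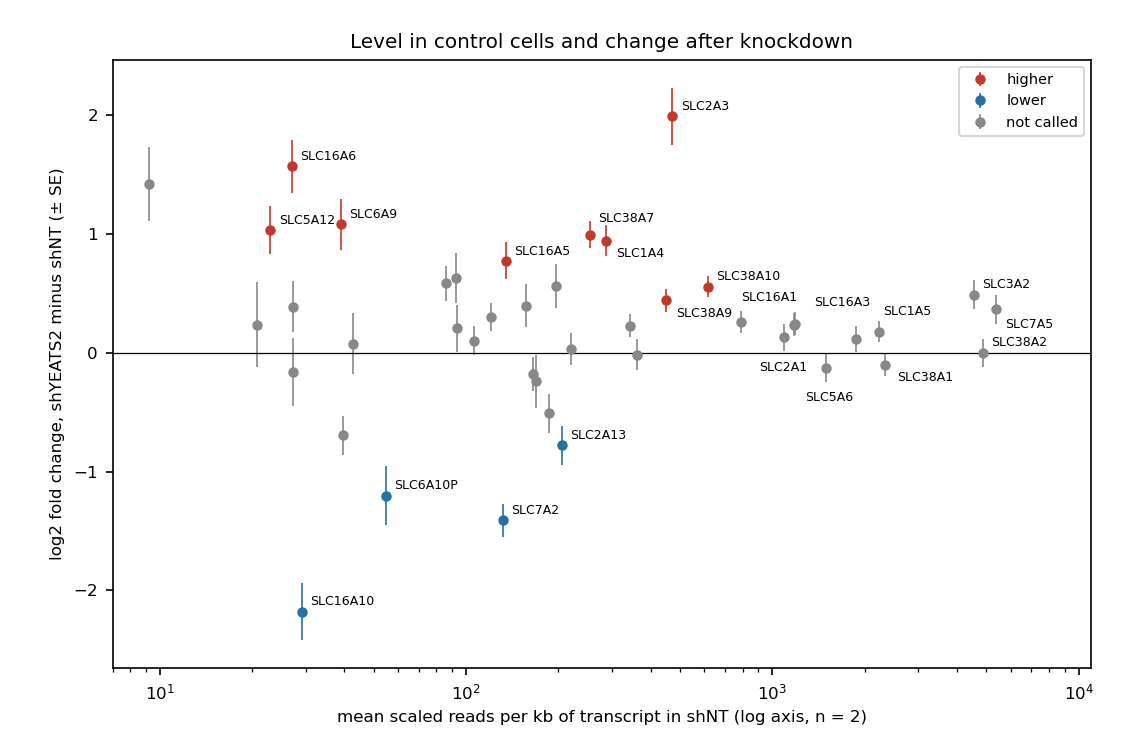
Mean scaled reads per kb of transcript in shNT (log axis, n = 2) against the log2 fold change (shYEATS2 minus shNT, bars 1 SE) for 43 of the 45 genes, SLC6A14 having no annotated length here. Red is called higher, blue called lower and grey not called. The 11 genes of highest level, at the right, lie between -0.13 and 0.49 on the log2 scale and none was called.

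The ratio of 2 transporters within a library does not depend on its scaling, and reads are not corrected for length here. In 7 pairs fixed by shared substrate or complex, the groups did not overlap in 5 (71.4%), beside 78.9% of all pairs of genes in the table, so separation was no more common among these pairs than elsewhere. The ratio of SLC2A3 to SLC2A1 reads was 0.434 and 0.548 in shNT against 1.23 and 2.41 in shYEATS2, so that GLUT3 reads went from fewer than GLUT1 reads to more. The ratio of SLC7A2 to SLC7A1 was 0.181 and 0.167 in shNT and 0.0595 and 0.0498 in shYEATS2, and that of SLC1A4 to SLC1A5 was 0.175 and 0.231 against 0.34 and 0.349. The group means of these 3 pairs differed by 3.53-fold, 0.314-fold and 1.71-fold. SLC43A2 to SLC43A1 was 8.01 and 6.26 against 8.85 and 11.4. The ratio of LAT1 to its heavy chain, SLC7A5 to SLC3A2, was 2.79 and 2.93 against 2.75 and 2.52, a change of 0.921-fold. The ratios of MCT4 to MCT1 (0.975 and 1.21 against 0.951 and 1.03) and of SLC38A2 to SLC38A1 (1.16 and 1.32 against 1.37 and 1.3) overlapped between the groups. With 2 libraries against 2, the two-sided exact permutation test cannot go below p = 0.333, which each of the 5 pairs reached (adjusted p = 0.467 over the 7 pairs), and the 2 overlapping pairs gave p = 0.667 (adjusted p = 0.667).

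**Figure D4:**
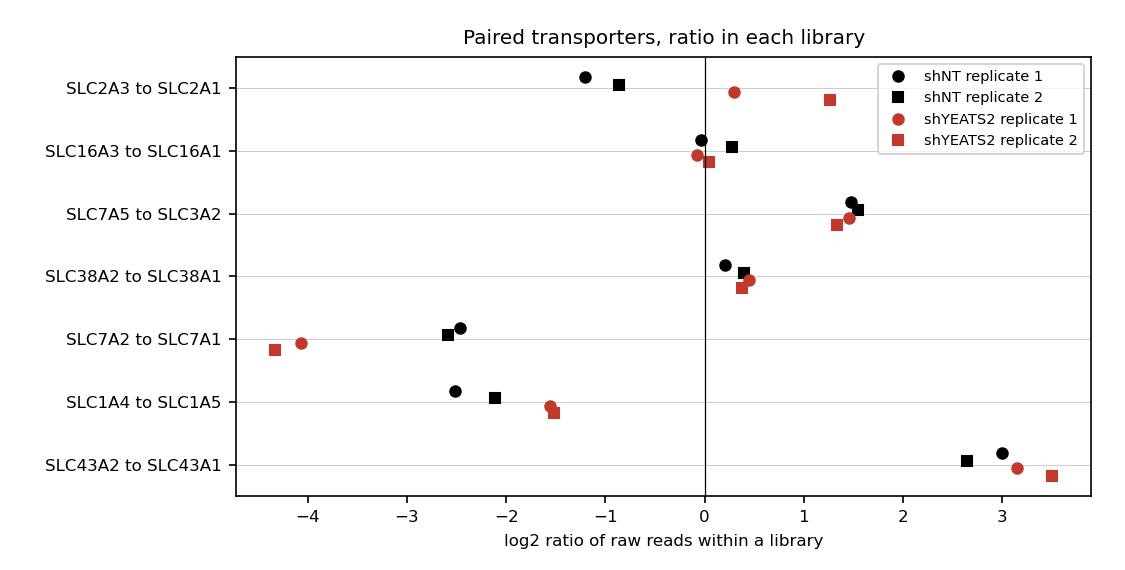
Log2 ratio of raw reads of 2 transporters within each library (x axis), with black for shNT, red for shYEATS2, circles for replicate 1 and squares for replicate 2. The SLC2A3 to SLC2A1 ratio crosses 0 between the groups, and the SLC7A2 to SLC7A1 ratio lies about 1.67 lower in shYEATS2.

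Another 6 lists of genes that work with these carriers were read beside them, against the 12.9% of all genes that rose and the 12.5% that fell. Of 17 listed partners and trafficking factors, 7 rose (41.2%) and 1 fell (5.88%), with a median log2 fold change of 0.15. Only 4 rose when shNT replicate 1, shNT replicate 2 or shYEATS2 replicate 2 was left out, and 2 fell without shNT replicate 2. ARRDC4, an arrestin known to pull glucose carriers off the membrane, had 43 and 43.4 scaled reads in shNT against 270.2 and 413 in shYEATS2 (log2 fold change 2.98 ± 0.27, FDR 0.00103). It and TMEM27, another of the 7, were listed only through shYEATS2. Its relative TXNIP was not listed. TBC1D1, a GTPase-activating protein that holds back GLUT4 traffic, fell from 6888 and 7311 scaled reads to 3905 and 3536 (log2 fold change -0.93 ± 0.099, FDR 0.00129). Of the chaperones that bring MCTs to the membrane, NPTN rose (log2 fold change 0.92 ± 0.10, FDR 0.00141), while BSG (-0.26 ± 0.093, FDR 0.0547) and EMB (0.15 ± 0.095, FDR 0.239) were not called.

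Of 24 enzymes of glucose, lactate and glutamine use, 3 rose and 3 fell (12.5% each), shares close to those of all genes, with a median of -0.22. No rise was left without shNT replicate 1 or without shYEATS2 replicate 2, and 5 rose without shYEATS2 replicate 1. LDHA, which makes lactate from pyruvate, had 29507 and 33037 scaled reads in shNT against 15788 and 13260.0 in shYEATS2 (log2 fold change -1.11 ± 0.12, FDR 0.00135). PDK3, a kinase that blocks pyruvate dehydrogenase, had the lowest log2 fold change of the list, -1.70 ± 0.24 (FDR 0.00247). LDHD, a mitochondrial D-lactate dehydrogenase, had the highest, 1.46 ± 0.29 (FDR 0.00736). PDK3 was listed only through shNT and LDHD only through shYEATS2. HK2, the first enzyme of glycolysis, was not called (-0.37 ± 0.17, FDR 0.109).

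In the list of amino acid sensing to mTORC1, 5 of 36 genes rose (13.9%) and 4 fell (11.1%), shares close to those of all genes (12.9% and 12.5%), with a median of 0.12. SESN2, a leucine sensor that is also an ATF4 target, had 1005 and 1852 scaled reads in shNT against 4225 and 5638 in shYEATS2 (log2 fold change 1.79 ± 0.28, FDR 0.00363), and its relative SESN1 rose too (1.00 ± 0.12, FDR 0.00155). 2 Rag GTPases moved in opposite directions, with RRAGC at 0.98 ± 0.16 (FDR 0.00411) and RRAGA at -0.65 ± 0.099 (FDR 0.00317). The number of rises was 3 without shNT replicate 1 or without shYEATS2 replicate 2 and 10 without shYEATS2 replicate 1, and the number of falls was 0 without either shNT library and 2 without shYEATS2 replicate 2. MTOR was not called (0.42 ± 0.095, FDR 0.0115).

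Of 28 genes of the ATF4 programme, 13 (46.4%) rose, beside 12.9% of all genes, and none fell by the quasi-likelihood test, nor did any fall at an unadjusted p under 0.05 or by exactTest, DESeq2 or limma-trend. The median log2 fold change was 0.75. NUPR1 had the highest value (3.90 ± 0.62, FDR 0.0037), followed by GDF15 (3.50 ± 0.64, FDR 0.00571). Both were listed only through shYEATS2, and the other 26 genes had 11 rises (42.3%) and a median of 0.58. The programme also differed between replicates of a group. In shNT, 24 of the 28 genes (85.7%) were higher in replicate 2 than in replicate 1, and in shYEATS2 22 (78.6%) were, beside 50% and 49.2% of all genes. The median difference, replicate 2 minus replicate 1, was 0.412 on the log2 scale in shNT and 0.279 in shYEATS2, and its part in the result was not tested. TRIB3, an ATF4 target and pseudokinase, had 966 and 1418 scaled reads in shNT against 4862 and 9202 in shYEATS2 (log2 fold change 2.56 ± 0.32, FDR 0.00181), and the stress factor DDIT3 had 594 and 1130.4 scaled reads in shNT against 2785 and 4844 in shYEATS2 (2.15 ± 0.35, FDR 0.00402). Part of the programme was not called. ATF4 mRNA itself had a log2 fold change of 0.10 ± 0.17 (FDR 0.648), and the serine synthesis enzymes PHGDH -0.0049 ± 0.16 (FDR 0.983) and PSAT1 0.07 ± 0.18 (FDR 0.775). The asparagine synthetase ASNS (0.82 ± 0.21, FDR 0.0187) missed the threshold, although both KD libraries lay above both controls. Of the 6 transporter genes with the ATF4 word in their promoter described below, only SLC1A4 was called.

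Of 22 genes in the HIF list, 3 rose (13.6%) and 4 fell (18.2%), beside 12.9% and 12.5% of all genes, with a median of 0.22. The list holds HIF targets and also EPAS1 and HIF1A, which encode the factor itself. The falls numbered 2 without shNT replicate 1 or shYEATS2 replicate 2 and 1 without shNT replicate 2. EPAS1, which encodes HIF-2α, was highest (1.75 ± 0.37, FDR 0.00984) and was listed only through shYEATS2, VEGFA rose (1.09 ± 0.15, FDR 0.00249), and the glycolytic genes ENO1 (-0.62 ± 0.12, FDR 0.00619), PGK1 (-0.46 ± 0.099, FDR 0.00989) and LDHA fell. HIF1A was not called (0.23 ± 0.095, FDR 0.0893). The last list held 22 carriers of other families, not all of which share these substrates. Of the 22, 2 rose (9.09%) and 1 fell (4.55%), with a median of 0.34. The rises were 4 without shYEATS2 replicate 1 and 1 without any 1 of the other libraries, and the fall was lost without shNT replicate 1 or shYEATS2 replicate 2. The sialic acid and aspartate carrier SLC17A5 rose (0.76 ± 0.11, FDR 0.00294), as did the heme carrier SLC48A1 (0.50 ± 0.10, FDR 0.00855), and the nucleoside carrier SLC29A1 fell (-0.68 ± 0.12, FDR 0.0051).

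**Figure D5:**
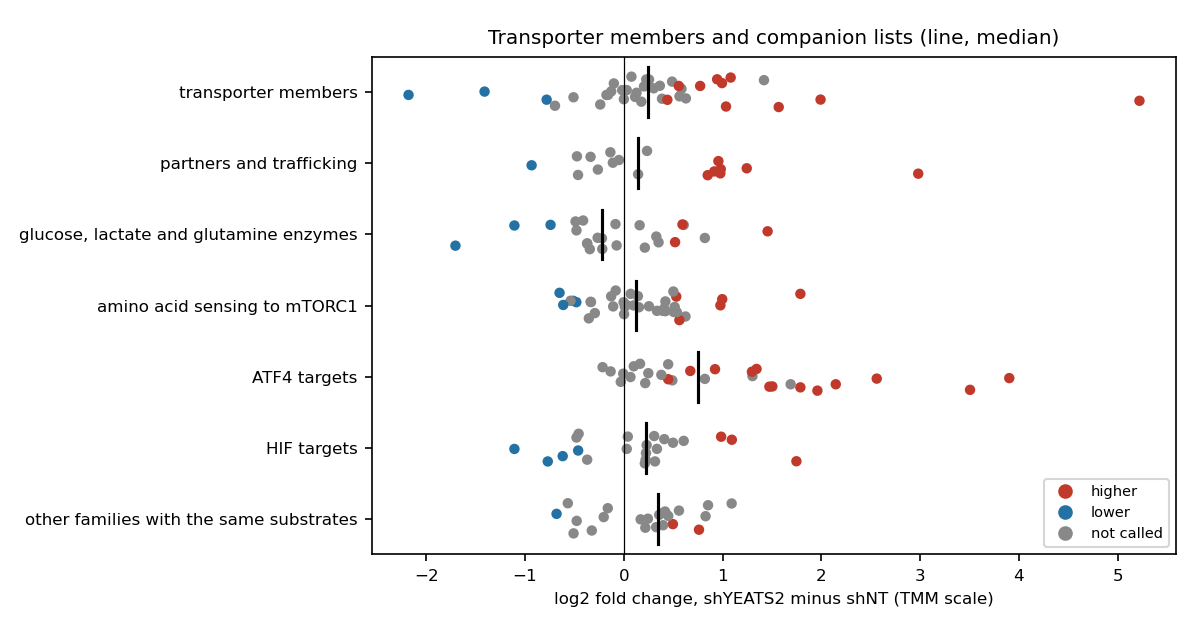
Log2 fold change (shYEATS2 minus shNT, x axis) of 40 of the 41 transporter genes and of the genes of the 6 lists, 1 enzyme left out, with red for called higher, blue for called lower, grey for not called and a black line at the median of all genes counted. Points are spread vertically at random within a row. The ATF4 list has its median farthest to the right (0.75) and no blue point.

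The promoters of the carriers were searched for the words of 2 factors known to act on nutrient genes. RefSeq promoters (250 bases before to 50 after each start, GRCh38.p14) were found for 32 of the 41 transporter genes. The C/EBP-ATF response element, a site of ATF4, was searched as TGATGNAA on both strands. It was found in 6 of the 32 genes (18.8%) and in 232 of 9085 tested genes (2.55%). The ATF4 list held it in 4 of 23 genes (17.4%) and the enzyme list in 4 of 20 (20%). The shares of the other lists ran from 0% (HIF) to 7.69% (partners and trafficking). Of the 7 transporter genes called higher that had a promoter, 1 held it (14.3%). Counted over promoter windows, of which a gene can have several, it was in 6 of 53 (11.3%) for the transporters. Among windows of the same length, it was in 1.88% for tested genes and in 3.62% of all promoters. The 6 genes are shown because all carry amino acids or are their heavy chain, with the word in capitals and 5′ to 3′ on the gene's strand. In SLC1A4 and SLC3A2 the word lies on the other strand and is printed as its reverse complement.
SLC1A3: caggaaatgacTGATGCAAagcagggttaa
SLC1A4: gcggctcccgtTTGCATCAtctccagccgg
SLC1A5: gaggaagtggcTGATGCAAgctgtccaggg
SLC38A1: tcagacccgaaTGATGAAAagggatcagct
SLC3A2: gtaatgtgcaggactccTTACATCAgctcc
SLC7A1: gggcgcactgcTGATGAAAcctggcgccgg

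The windows lie at chr5:36596357-36596386 (+) for SLC1A3, chr2:64989381-64989410 (+) for SLC1A4, chr19:46784893-46784922 (-) for SLC1A5, chr12:46266502-46266531 (-) for SLC38A1, chr11:62881719-62881748 (+) for SLC3A2 and chr13:29595663-29595692 (-) for SLC7A1. SLC1A4 was the 1 of the 6 that was called, with a log2 fold change of 0.95. The other 5 had log2 fold changes of 0.49 (SLC3A2), 0.26 (SLC7A1), 0.24 (SLC1A3), 0.18 (SLC1A5) and -0.10 (SLC38A1). No glucose or lactate carrier with a promoter in the table held the word.

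The E-box CACGTG, a site of MYC and of the lysosomal factor TFEB, reads the same on both strands. It was in 7 of the 32 transporter genes (21.9%) and in 13% of tested genes. Most of the lists had a higher share than the transporters. It was 30% for the enzymes, 29.4% for the other families, 25% for mTORC1 sensing and for the HIF list, and 23.1% for the partners. The ATF4 list had a lower share, 8.7%. Of the called genes, it was found in SLC38A7, which rose, and SLC2A13, which fell. The SLC38A7 site lies in chr16:58684738-58684767 (-) and the SLC2A13 site in chr12:40106088-40106117 (-), and both are printed with the word in capitals because their genes moved in opposite directions.
SLC2A13: gcccggggttgCACGTGacccgcggtcccg
SLC38A7: tgatgcatgctCACGTGtctccgcagccgg

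The other 5 genes with the E-box, SLC7A5, SLC1A5, SLC43A1, SLC16A9 and SLC6A16, were not called. A match is a string in a window and says nothing of whether a factor binds there in these cells.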

How the data were processed

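Bulk poly(A) RNA of 2 shNT and 2 shYEATS2 libraries was sequenced on an Illumina instrument with a kit that does not mark the strand. The authors aligned the reads to hg19 (RNA-Seq unified mapper), counted them per gene with HTSeq and deposited these counts without normalization. The submitters' processing notes also name HTSeq 0.6.1p1, Bowtie2 2.1.0 and TopHat2 2.0.10, without saying which file each made. The authors also deposited their own fold changes on a log2 scale and p-values, which were not used. Libraries were grouped by their labels.

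A filter of 10 reads in 2 libraries was passed by all 12676 genes. They were tested with edgeR 4.0.16 (R 4.3.3), glmQLFit and glmQLFTest, TMM scaling, no block and an FDR under 0.01. The biological coefficient of variation was 0.107, and the median SE was 0.143 for the 45 genes. The test was tried on simulated data. Alternatives were exactTest, DESeq2 1.42.0, limma-trend (limma 3.58.1, pseudocounts 1 and 0.1), 3 other scalings, no filter, a minimum mean count of 100, the replicate number as a block, an FDR threshold of 0.05, a minimum change of 1.5-fold and fits without each library in turn. The fit with no filter equals the main fit, because every gene passed the filter, so it adds nothing to the counts of alternatives. Positions are from GENCODE v44 lifted to GRCh37, which matched 44 of the 45 identifiers. The members and lists were chosen with earlier results of these data known. Genes named are YEATS2, every called member, the main carriers of each class whether called or not, the remaining members by value or range, and in each list the called genes with the largest rise and fall and up to 3 central genes, beside which a few called genes were named after their values were seen. 1 of the 45 genes and 1 listed enzyme are counted, but their own values are not reported here. The study's ChIP-seq was not analysed here.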

Additional observations from a re-analysis of the deposited data

How the results depend on the processing

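YEATS2 stayed called, with a log2 fold change between -2.74 and -2.56, in every alternative and with each library left out. No member reversed its direction past the threshold. The count of rises (10) became 16 with the replicate block and 17 at an FDR under 0.05, and ranged from 5 to 10 with 1 library left out. The count of falls (4) became 6 with the replicate block and at an FDR under 0.05, 5 with exactTest and 2 with total counts, and ranged from 2 to 4 with 1 library left out. The median log2 fold change of the members (0.24) became 0.36 with total counts and ranged from 0.207 to 0.291 with 1 library left out. The log2 fold change of SLC6A14 dropped to 1.9 with limma-trend at a pseudocount of 1, which by its construction shrinks genes with few reads. Over all genes, 1630 rises and 1581 falls became 2590 and 2493 with exactTest, 2742 and 2715 with the replicate block, 775 and 850 without shNT replicate 1, 882 and 919 without shNT replicate 2, 1991 and 2032 without shYEATS2 replicate 1 and 1002 and 1066 without shYEATS2 replicate 2. Total counts gave 2363 and 1166. The cause of these moves was not tested. A library left alone in its group was assumed to vary like the others. By class, the rises among the hexose carriers (1) became 3 with exactTest, total counts or the replicate block and 2 with DESeq2 or the upper quartile, through SLC2A14 and SLC2A11. The heavy chain SLC3A2 became 1 rise with exactTest, DESeq2, total counts or the replicate block, and the large neutral amino acid class 2 with the block. The falls in SLC6 (0) became 1 with exactTest and 2 with the block, and its rises 1 with a minimum mean count of 100, which leaves out SLC6A14. The fall of SLC2A13 became 0 with total counts, and that of SLC6A10P 0 with limma-trend at both pseudocounts, total counts or the minimum mean count. With 1 library left out, the rises ranged from 1 to 2 for hexoses, for the other SLC16, for SLC38 and for SLC6, and from 0 to 1 for lactate and for large neutral amino acids, and the falls from 0 to 1 for inositol and for SLC6 and were 0 for the pseudogene. Calls in the 6 lists were refitted under the same settings after the data had been seen. The ATF4 list kept between 10 and 17 rises and no fall in every one of them. Rises and falls were 13 and 6 for mTORC1 sensing by exactTest, with 11 rises by DESeq2 or total counts, 13 with the block and 2 falls with total counts. The enzymes had 8 falls by exactTest, 6 by DESeq2 and 10 falls and 5 rises with the block. The partners had 4 falls with the block. The HIF list had 2 falls with total counts and 7 falls and 7 rises with the block. The other families had 8 rises and 4 falls by exactTest, 3 falls by DESeq2, 7 rises with total counts and 9 rises and 4 falls with the block. With 1 library left out, the rises ranged from 4 to 6 for the partners, 0 to 5 for the enzymes, 3 to 10 for mTORC1 sensing and 1 to 4 for the other families, and the falls from 1 to 2 for the partners, 0 to 4 for mTORC1 sensing, 1 to 3 for the HIF list and 0 to 1 for the other families. The pair ratios moved by less than the spread between replicates with 0.5 read added. With 2 libraries a group, leaving 1 out cannot move a ratio by more than that spread, and the log2 difference of SLC16A3 to SLC16A1 (-0.131) then turned to 0.025 without shNT replicate 2. Same-numbered libraries deviated together (correlation 0.412 over 12137 genes). With 2 pairs and no label that ties the numbers, whether these libraries share a batch was not tested. The fit with the replicate block is therefore an alternative. Genes with at most 100 reads in each library are not in the table, so changes among low carriers could not be seen. The counts without genes listed through 1 group were added after the data had been seen.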
